A study of Arabidopsis thaliana with 6 samples.

Results

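The regions described here lie in 2 long blocks of the Arabidopsis thaliana genome that were almost wholly missing from the comparison of mat nrpd1+/- with WT. The blocks were chosen from the deposited lists of sequence whose share of maternal reads was acceptable: chromosome 1 from 17857001 to 29257000 and chromosome 2 from 15020001 to 19698289 (TAIR10) were nearly absent from the mat nrpd1+/- list but present in the WT and pat nrpd1+/- lists. A region was a member if its midpoint lay in a block. The 8 lists used held 22359 regions on the 5 chromosomes, of which 2460 were members and 6771 lay on the rest of chromosomes 1 and 2. The members were 74 of 707 CG and 227 of 2056 CHH differentially methylated regions (DMRs) between WT and pat nrpd1+/-, together with regions that differed between the replicates of a single genotype, called variable regions here. Of the variable CG regions, 13 belonged to WT, 119 to mat nrpd1+/- and 31 to pat nrpd1+/-, and the variable CHH regions numbered 547, 814 and 635 in the same order.

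The lists derive from bisulfite sequencing of whole endosperm genomes 7 days after pollination, in 2 replicates of each of 3 genotypes. WT endosperm came from Ler mothers and Col fathers. In mat nrpd1+/- endosperm the Ler mother was nrpd1-/- and the Col-0 father was WT, and in pat nrpd1+/- endosperm the Ler mother was WT and the Col-0 father was nrpd1-/-. All 6 samples were thus F1 hybrids of the same accessions in the same direction. Per the methods of the study, the mutant allele was nrpd1a-4 in the Col-0 background, the Ler mutant was obtained by introgression of that allele, and each replicate pooled endosperm of many seeds. According to a supplementary figure legend of the study, the Ler nrpd1-/- plants still carried Col-0 segments. The replicates of a genotype were pooled in the DMR lists, which hold 1 difference per region and no read counts. The depth behind each region is therefore unknown, and no difference between genotypes has a replicate check of its own.

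Endosperm is the nourishing tissue of the seed and carries more maternal than paternal genome copies. NRPD1 is the largest subunit of RNA polymerase IV, which starts RNA-directed DNA methylation: its transcripts become small RNAs that guide the methyltransferase DRM2 to cytosines, including those in the asymmetric CHH context, where H stands for any base but G. CG methylation is copied at replication by MET1 with the help of VIM proteins and is common in the bodies of transcribed genes.

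The sequences of 5 DMRs are given first to show their base composition in the reference. They are the largest loss in the blocks for CG and for CHH, the largest CHH gain, and the largest CG gain in each block, among DMRs that touched no untranslated region. Each is the central 300 bases of the plus strand of TAIR10.1, and differences are pat nrpd1+/- minus WT in percentage points. For CG regions, capitals mark CG dinucleotides. For CHH regions, a capital C is a CHH cytosine of the strand shown and a capital G pairs with a CHH cytosine of the other strand.
CG loss of -82.7, chr1:21741901-21742200: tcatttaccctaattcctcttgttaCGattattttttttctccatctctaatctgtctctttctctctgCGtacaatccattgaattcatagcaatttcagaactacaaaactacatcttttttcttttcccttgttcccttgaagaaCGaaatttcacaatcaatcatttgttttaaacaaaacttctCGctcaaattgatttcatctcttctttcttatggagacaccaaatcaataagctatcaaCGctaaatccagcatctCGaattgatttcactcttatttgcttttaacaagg
CG gain of 53.5, chr1:18719601-18719900: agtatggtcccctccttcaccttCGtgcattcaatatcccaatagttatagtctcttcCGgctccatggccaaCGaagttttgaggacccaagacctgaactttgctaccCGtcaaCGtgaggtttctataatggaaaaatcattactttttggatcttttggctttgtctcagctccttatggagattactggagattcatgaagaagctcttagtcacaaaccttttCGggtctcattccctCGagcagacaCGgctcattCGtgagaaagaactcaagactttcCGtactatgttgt
CG gain of 57.9, chr2:16140251-16140550: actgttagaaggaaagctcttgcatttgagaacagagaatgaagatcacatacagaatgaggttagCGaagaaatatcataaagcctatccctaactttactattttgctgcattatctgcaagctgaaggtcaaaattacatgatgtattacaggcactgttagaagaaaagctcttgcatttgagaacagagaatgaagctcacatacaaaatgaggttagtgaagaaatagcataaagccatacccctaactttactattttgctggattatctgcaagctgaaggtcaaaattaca
CHH loss of -60.1, chr1:19336251-19336550: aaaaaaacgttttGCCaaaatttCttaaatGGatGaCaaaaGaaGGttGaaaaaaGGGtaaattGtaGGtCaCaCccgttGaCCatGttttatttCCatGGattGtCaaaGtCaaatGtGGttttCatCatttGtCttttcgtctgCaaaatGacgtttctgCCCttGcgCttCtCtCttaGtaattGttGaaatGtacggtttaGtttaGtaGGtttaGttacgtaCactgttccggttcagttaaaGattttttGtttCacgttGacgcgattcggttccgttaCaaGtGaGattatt
CHH gain of 53.3, chr1:22003801-22004100: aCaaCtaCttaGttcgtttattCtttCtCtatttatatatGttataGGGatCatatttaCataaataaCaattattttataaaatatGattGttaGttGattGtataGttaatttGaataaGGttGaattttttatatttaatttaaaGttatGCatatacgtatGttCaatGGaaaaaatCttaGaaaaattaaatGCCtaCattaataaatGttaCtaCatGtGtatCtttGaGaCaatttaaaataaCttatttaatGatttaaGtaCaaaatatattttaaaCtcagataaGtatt

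The CG loss on chromosome 1 overlapped the non-coding gene AT1G09705 and its reference sequence held 6 CG sites. The CG gain of 53.5 points lay in a coding exon of CYP705A27, a cytochrome P450 gene, with 10 CG sites, 44.0% GC. By contrast, the gain of 57.9 points lay in the coding sequence and an intron of AT2G38580, where the reference held 1 CG site in the whole 400 bases. The CHH loss of -60.1 points lay 65 bp upstream of AT1G52000, a mannose-binding lectin gene, and 68 CHH cytosines of both strands fell in the 300 bases shown. The CHH gain of 53.3 points lay 125 bp downstream of AT1G59790, a cullin gene, in sequence with only 19.3% GC.

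The blocks were well covered in WT and in pat nrpd1+/- endosperm and almost empty in mat nrpd1+/- endosperm, which is how they were chosen. On chromosome 1, WT retained 95.6% of the block and pat nrpd1+/- 95.8%, against 0.0263% in mat nrpd1+/-. On chromosome 2 these values were 96.3%, 97.3% and 0%. The maternal share of reads in the retained sequence of the blocks, weighted by length, was 0.633 in WT and 0.640 in pat nrpd1+/-, and on the rest of chromosomes 1 and 2 it was 0.633 and 0.639. In mat nrpd1+/- endosperm only 3 pieces of 1000 bp remained, at 18627001, 19055001 and 21125001 on chromosome 1, with maternal fractions between 0.547 and 0.60. NRPD1 itself (AT1G63020, chromosome 1, 23354685 to 23362589) lay inside the first block and NRPE1 (AT2G40030, chromosome 2, 16714460 to 16723718), the largest subunit of RNA polymerase V, inside the second.

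**Figure D1:**
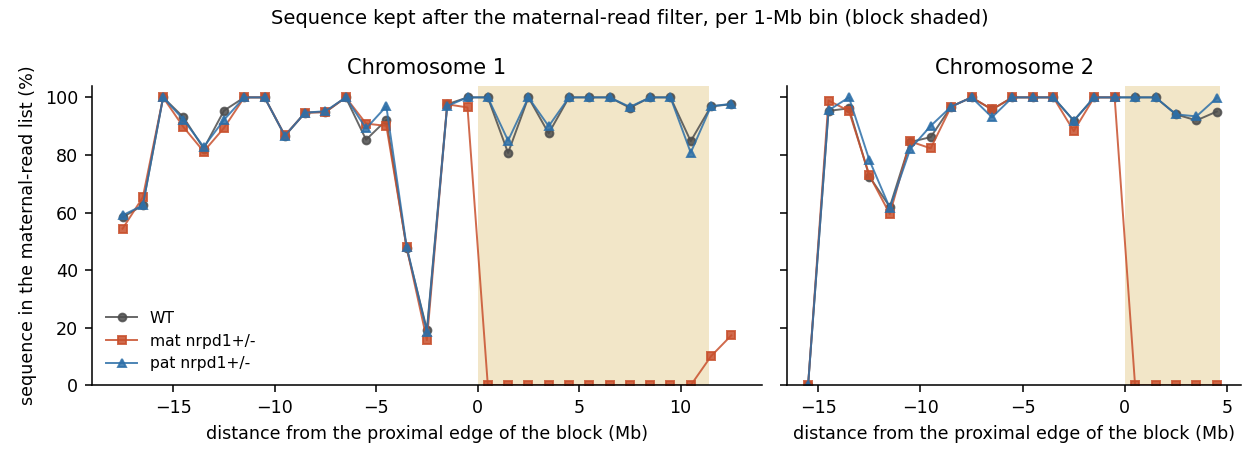
Share of sequence in the maternal-read list of each genotype, in percent, per 1-Mb bin of chromosomes 1 and 2, against the distance from the proximal edge of the block (shaded; the bins at the chromosome ends are shorter). Inside the blocks WT and pat nrpd1+/- keep between 80.7% and 100% of each full bin, and mat nrpd1+/- keeps 0.1% or less.

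The lists of comparisons with mat nrpd1+/- had next to nothing in the blocks. This follows from the choice of the blocks, because the study limited its comparisons to sequence with an acceptable share of maternal reads. The CG lists of mat nrpd1+/- against WT and against pat nrpd1+/- held 0 DMRs there, and 180 and 379 on the rest of chromosomes 1 and 2. The CHH list of mat nrpd1+/- against pat nrpd1+/- held 0, and that against WT held 1, in the first retained piece. This DMR (18627001 to 18627500) was -20.6 points in mat nrpd1+/-, and the pat nrpd1+/- DMR that overlaps it (18627201 to 18627500) was -30.3 points. Both values used the same WT libraries. The site lay 50 bp downstream of AT1G50290.

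Loss of paternal Pol IV was accompanied in the blocks by CG losses and gains of similar size. Of the 74 CG DMRs, 45 were hypomethylated in pat nrpd1+/- and 29 hypermethylated, a hypomethylated share of 60.8% (exact 95% Clopper-Pearson interval 48.8% to 72.0%). On the rest of chromosomes 1 and 2 the share was 63.1% (123 of 195, interval 55.9% to 69.9%), and the difference of -2.27 points did not pass the test (Fisher's exact test, two-sided, Benjamini-Hochberg over 14 tests, adjusted p = 0.838). In all retained sequence of the 5 chromosomes, hypomethylated CG DMRs covered 0.146% of 100-bp bins and hypermethylated ones 0.0922%. In the blocks these shares were 0.115% and 0.0678%, lower than that background in both directions and close to the 0.117% and 0.0598% of the chromosome arms outside them. Because regions are the units and neighbouring regions are not independent, p-values here describe the lists and not the reproducibility of a genotype.

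Since the list contains only regions that differ by at least 30 points for CG and 10 points for CHH, the sizes are a description. The CG losses ranged from -82.7 to -30.01 points with a median of -35.5, and the gains from 30.2 to 82.9 with a median of 38.1. On the rest of both chromosomes the medians were -35.4 and 36.7 points. A region was 300 bp long at the median, the length of a single window, and 40 of the 74 were no longer than that.

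For CHH methylation, 125 of 227 DMRs in the blocks were hypomethylated in pat nrpd1+/- (55.1%, interval 48.3% to 61.7%) and 102 were hypermethylated. The share on the rest of chromosomes 1 and 2 was 54.6% (353 of 647, interval 50.6% to 58.4%), and the difference of 0.507 points did not pass the test (Fisher's exact test, adjusted p = 0.938). Against the background of 0.383% of bins in hypomethylated and 0.318% in hypermethylated CHH DMRs, the blocks had 0.299% and 0.251%. The chromosome arms outside the blocks had 0.260% and 0.295%, so the blocks lay above them for losses and below them for gains. CHH losses had a median of -12.7 points and reached -60.1, and gains had a median of 16.0 and reached 53.3. With a cut-off of 15 points in place of 10, gains outnumbered losses in the blocks: 38 of 94 regions, 40.4%, were hypomethylated, and the difference from the rest turned to -3.16 points (Fisher's exact test, adjusted p = 0.739). Against the arms of chromosomes 1 and 2, more than 3 Mb from the centromeres, where 46.6% of 311 CHH DMRs were hypomethylated, the difference was 8.44 points (Fisher's exact test, adjusted p = 0.387).

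**Figure D2:**
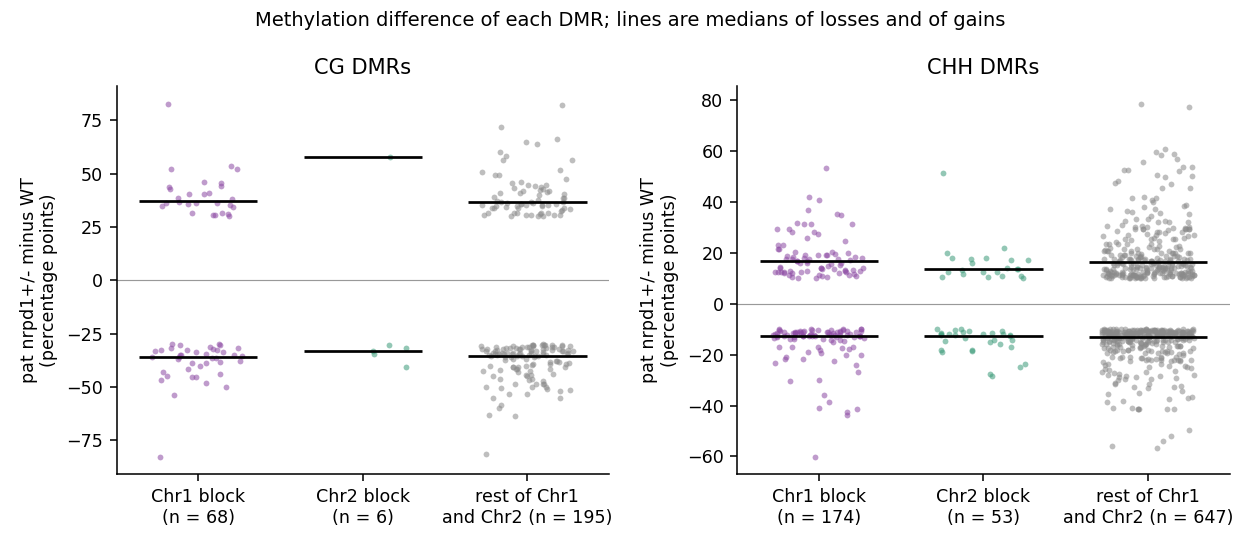
Methylation difference of each CG (left) and CHH (right) DMR between pat nrpd1+/- and WT, in percentage points, for both blocks and the rest of chromosomes 1 and 2; each point is a region, the horizontal jitter is arbitrary, and lines are the medians of losses and of gains. Pooled over both blocks, losses and gains have nearly the same medians as outside them. In the chromosome 2 block the CG gain line is 1 region at 57.9 points, and the CHH gain median is 13.6, against 16.3 outside. The gap around 0 is the threshold of the list.

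The chromosome 1 block held most of the CG DMRs. It had 68, or 6.28 per Mb of sequence retained in WT and pat nrpd1+/- (exact Poisson 95% interval 4.88 to 7.96). The chromosome 2 block had 6, or 1.33 per Mb (0.489 to 2.90). Relative to the rest of its own chromosome, the density ratio was 1.14 on chromosome 1 (exact conditional interval 0.82 to 1.59, adjusted p = 0.727) and 0.171 on chromosome 2 (0.0615 to 0.385, adjusted p = 2.16e-07). Both blocks together gave a ratio of 0.737 (interval 0.556 to 0.967), which did not pass the test after adjustment (exact binomial test, adjusted p = 0.0680). Without the stretch of chromosome 1 beyond the block, an alternative chosen after the data were seen, the ratio was 0.720 and passed the exact test (adjusted p = 0.0400). With that stretch included, the ratio to the chromosome arms, more than 3 Mb from the centromeres, was 0.946 (0.693 to 1.29, exact binomial test, adjusted p = 0.917). These arms had 4.67 CG DMRs per Mb on chromosome 1 and 5.68 on chromosome 2. The chromosome 1 block thus lay above the arms of its own chromosome and the chromosome 2 block below them, which was not tested.

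All 6 CG DMRs of the chromosome 2 block can be named. Moving away from the centromere, the first was the gain of 57.9 points in AT2G38580, and the other 5 were losses. They lay in the non-coding genes AT2G09485 (-33.1 points) and AT2G45245 (-40.8), in a coding exon of AT2G45540, which encodes a beige-like WD-40 protein (-34.8), and at ABIL1, which encodes an ABI-1-like protein (-31.6 and -30.3). The ABIL1 regions were 1 kb apart (18982801 to 18983200 and 18984201 to 18984500), and the second also overlapped AT2G46230. The losses fell within a single bin of the profile, between 3 and 4 Mb from the proximal edge.

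CHH DMRs were less dense in the blocks than on the rest of the chromosomes. There were 14.8 per Mb in the blocks (interval 12.9 to 16.9) and 21.7 per Mb on the rest (20.1 to 23.5), a ratio of 0.681 (0.583 to 0.793, exact binomial test, adjusted p = 1.30e-06). The comparison sequence included the pericentromeres, where CHH DMRs were most dense, at 36.6 per Mb within 3 Mb of the centromeres. Against the chromosome arms alone, which had 13.1 per Mb on chromosome 1 and 17.8 on chromosome 2, the ratio was 0.979 (0.822 to 1.17, exact binomial test, adjusted p = 0.917). By block, there were 16.1 CHH DMRs per Mb on chromosome 1 and 11.8 on chromosome 2, with ratios to the rest of the same chromosome of 0.849 (exact binomial test, adjusted p = 0.325) and 0.470 (adjusted p = 1.22e-07). Beside the arms of its own chromosome, the chromosome 1 block was denser and the chromosome 2 block less dense, which was not tested.

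**Figure D3:**
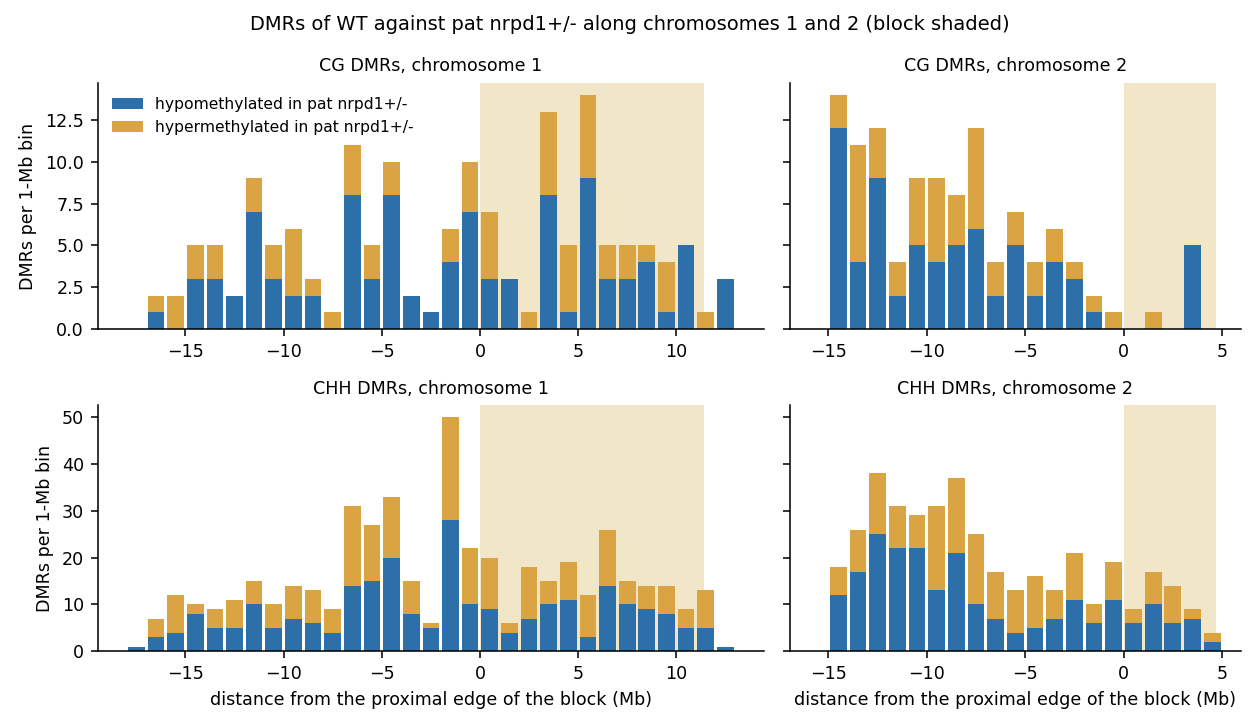
Number of CG (top) and CHH (bottom) DMRs between WT and pat nrpd1+/- per 1-Mb bin, split into hypomethylated and hypermethylated regions, against the distance from the proximal edge of the block (shaded). The fullest CG bins of the chromosome 1 block hold 14 and 13 DMRs, the chromosome 2 block has CG DMRs in 2 of its 5 bins, and CHH DMRs peak outside the blocks with 50 in a bin.

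The variable CHH regions showed the same relation in every genotype. In WT the density was 35.7 per Mb in the blocks and 55.3 on the rest (ratio 0.645, interval 0.584 to 0.711, exact binomial test, adjusted p = 6.01e-19). The ratio was 0.714 in mat nrpd1+/- (0.658 to 0.774, adjusted p = 3.10e-16) and 0.697 in pat nrpd1+/- (0.636 to 0.764, adjusted p = 6.54e-15), all by the exact binomial test. These counts included variable regions outside the retained sequence whose length they were divided by. Counting only regions in that sequence, a choice made after the data were seen, gave 0.694, 0.755 and 0.743 for WT, mat nrpd1+/- and pat nrpd1+/-. Dividing all regions by the whole length gave 0.704, 0.779 and 0.761. Against the arms alone the ratios were 0.892, 0.967 and 0.975, and none passed the exact test (adjusted p = 0.387, 0.917 and 0.917). In the blocks these regions covered 1.41%, 2.12% and 1.65% of bins in the order of genotypes above, beside 1.81%, 2.59% and 2.02% of all retained bins of the 5 chromosomes.

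**Figure D4:**
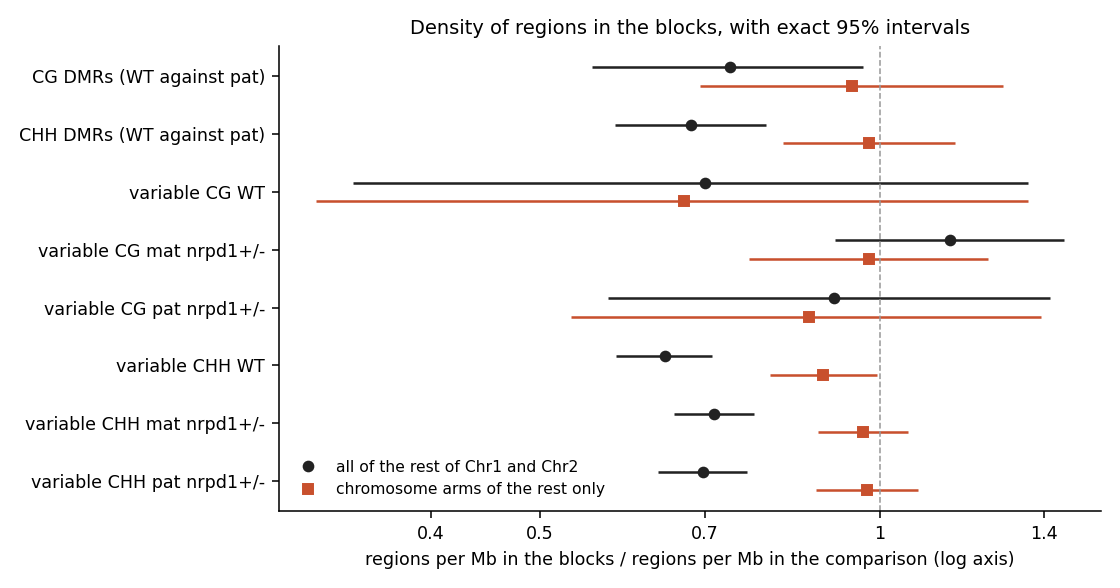
Ratio of regions per Mb in the blocks to regions per Mb in the comparison sequence (log axis), with exact 95% intervals that cover counting error only, for the 8 lists. Circles compare with all of the rest of chromosomes 1 and 2 and squares with its arms, more than 3 Mb from the centromeres; all CHH ratios move from between 0.645 and 0.714 to between 0.892 and 0.979.

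The list of variable CG regions was longest for mat nrpd1+/- endosperm, in the blocks as elsewhere. The thresholds and the coverage minimum behind the variable lists are not given in the sources used here, and depth per genotype is unknown, so whether these counts are comparable between genotypes was not tested. The 119 members in mat nrpd1+/- compare with 13 in WT and 31 in pat nrpd1+/-, and covered 0.254%, 0.0248% and 0.0600% of bins. The backgrounds over all retained bins were 0.285%, 0.0388% and 0.0651%. The blocks held 37.3% of the variable CG regions of chromosomes 1 and 2 in mat nrpd1+/- (119 of 319), 26.5% in WT (13 of 49) and 32.0% in pat nrpd1+/- (31 of 97). Neither difference passed the test (10.8 points, adjusted p = 0.307, and 5.35 points, adjusted p = 0.557, Fisher's exact test). For CHH the corresponding differences were 1.95 points (Fisher's exact test, adjusted p = 0.274) and 0.466 points (adjusted p = 0.838). On chromosome 2 alone the block held 40.4% of the variable CG regions of mat nrpd1+/- (42 regions) and 15% of those of WT (3 regions), a difference of 25.4 points (Fisher's exact test, adjusted p = 0.0821). None of the variable regions overlapped the 3 pieces retained in mat nrpd1+/-, so the members in that genotype lay in sequence that its maternal-read list left out.

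The density of variable CG regions of mat nrpd1+/- was 7.76 per Mb in the blocks and 6.72 on the rest (ratio 1.15, interval 0.913 to 1.46, exact binomial test, adjusted p = 0.376). On chromosome 2 the block held 42 regions, or 9.33 per Mb, against 4.51 on the rest (ratio 2.07, 1.36 to 3.11, exact binomial test, adjusted p = 9.00e-04). On chromosome 1 the block held 77, or 7.11 per Mb, against 8.62 (ratio 0.825, 0.616 to 1.10, exact binomial test, adjusted p = 0.523). Part of that comparison was the 1.17 Mb between the distal edge of the block and the chromosome end, which alone held 45 of the 138 regions on the rest of chromosome 1. There mat nrpd1+/- retained 17.1% of the sequence, against 96.2% in WT and 96.3% in pat nrpd1+/-. With that stretch left out, a choice made after the data were seen, the ratio was 1.14 on chromosome 1 (0.830 to 1.56, exact binomial test, adjusted p = 0.690). Over both chromosomes it was then 1.43 (1.12 to 1.83, exact binomial test, adjusted p = 0.00978). Against the arms of both chromosomes, the ratio was 0.980 with the stretch included (0.767 to 1.25, exact binomial test, adjusted p = 0.917). It was 1.28 without the stretch (0.983 to 1.66, exact binomial test, adjusted p = 0.331).

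In WT and pat nrpd1+/- the density ratios of variable CG regions were 0.701 (interval 0.341 to 1.35, exact binomial test, adjusted p = 0.459) and 0.912 (0.575 to 1.42, adjusted p = 0.838). With 13 and 31 members these intervals were wide.

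**Figure D5:**
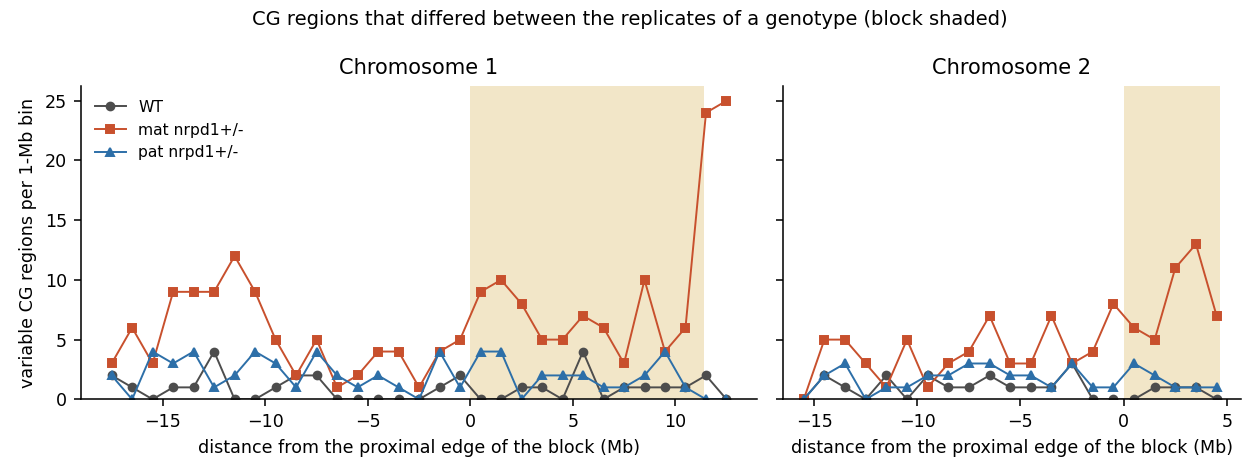
Variable CG regions of each genotype per 1-Mb bin of chromosomes 1 and 2, against the distance from the proximal edge of the block (shaded). In mat nrpd1+/- the chromosome 2 block reaches 13 per bin, and the last 2 bins of chromosome 1, which lie mostly beyond the block, hold 24 and 25, where WT has 2 and 0 and pat nrpd1+/- has 0.

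The lists differed in their position relative to genes. Variable CG regions lay almost entirely in protein-coding genes: 12 of 13 in WT, 113 of 119 in mat nrpd1+/- and 30 of 31 in pat nrpd1+/-, or 92.3% at the least. In the same order, these shares were 77.8%, 88.5% and 83.3% on the rest of chromosomes 1 and 2. In the arms of the rest they were 96.2%, 95.1% and 89.6%, so this was not particular to the blocks. A 300-bp window of the blocks overlapped a protein-coding gene in 69.4% of cases, for comparison. CG DMRs did so in 62.2% (46 of 74) and CHH DMRs in 51.5% (117 of 227), while 49.3% of CHH DMRs reached into the 1 kb upstream of a gene. On the rest of chromosomes 1 and 2 only 42.6% of CG and 32.0% of CHH DMRs overlapped protein-coding genes, beside 56.6% of windows. In the arms of the rest these shares were 55.2% and 50.2%, beside 69.4% of windows.

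By position, CG losses and gains were divided unequally. In protein-coding genes of the blocks 22 of 46 were hypomethylated (47.8%, interval 32.9% to 63.1%), and between genes 18 of 21 (85.7%, interval 63.7% to 97.0%). The rest of the chromosomes had the same order, with 43.4% of 83 and 81.2% of 85. CHH DMRs had no such split, at 53.0% of 117 in protein-coding genes and 55.1% of 98 between genes. These differences between positions were not tested.

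Base composition also differed between the lists. The median GC content was 29.8% for CHH DMRs and 35.3% for CG DMRs of the blocks, against 36.0% for all windows there, and 41.7%, 40.7% and 41.0% for variable CG regions of WT, mat nrpd1+/- and pat nrpd1+/-, respectively. On the rest of chromosomes 1 and 2 the medians were 30.7% for CHH DMRs and 34.3% for CG DMRs. For variable CG regions they were 40.7%, 40.4% and 41.0% there, in the same order of genotypes. The CG DMRs of the blocks held few CG sites: 6 had 1 site, 7 had 2, 23 had 3 to 5 and 38 had 6 or more. A single site provides a pair of CG cytosines, fewer than the minimum per window that the methods of the study state. The share with 1 or 2 sites was 17.6% in the blocks (13 of 74, interval 9.70% to 28.2%) and 13.3% on the rest (26 of 195), and 10.02% of block windows had so few. Of the 13, 5 were hypomethylated. No variable CG region of the blocks had fewer than 3 sites in any genotype. The sites were counted in the Col-0 reference, and the Ler allele was not analysed here.

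The 5 largest CG losses lay on chromosome 1. After AT1G09705 (-82.7 points) came a region of 400 bp, 411 bp downstream of BGLU22, a glycosyl hydrolase gene (-53.8), and a region in coding and intron sequence of SMU1, a WD-40 gene of the transducin family (-50.0, 1 CG site). The next were 88 bp upstream of AT1G62895 (-48.2) and 944 bp downstream of AT1G56385, a member of the plant self-incompatibility S1 family (-47.0). Only SMU1 of these 5 lay in a protein-coding gene. The 5 largest CG gains all did: AT1G66320, an F-box gene (82.9 points, 20 CG sites), AT2G38580 (57.9), CYP705A27 (53.5), AT1G58410, a disease resistance gene of the CC-NBS-LRR class (52.4), and AT1G65985, of unknown function DUF247 (52.2).

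The largest CHH losses were also on chromosome 1: upstream of AT1G52000 (-60.1 points), 561 bp upstream of TAF15, a TBP-associated factor (-43.8), 83 bp upstream of AT1G57765 (-42.5), in the pseudogene AT1G50850 (-41.5) and 1436 bp downstream of AT1G49050, an aspartyl protease gene (-41.0). The pseudogene region stood out by its base composition, with 56.2% GC and 38 CG sites in 500 bp. The largest CHH gains were near AT1G59790 (53.3 points), in untranslated sequence of AT2G42340 (51.2), in an intron of AT1G73530, an RNA-binding protein gene (42.0), in untranslated sequence of AT1G73620, a thaumatin gene (40.8), and 134 bp upstream of BGLU21 (36.7). Thus 1 of the 5 gains and none of the 5 losses was on chromosome 2. Genes with close relatives in tandem, such as BGLU21 and BGLU22 or the NBS-LRR genes, may share reads, and their values are uncertain for that reason.

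In 3 places a CG and a CHH DMR of the blocks overlapped, all on chromosome 1. At AT1G09705 both contexts lost methylation (-82.7 points for CG and -13.8 for CHH). Near AT1G56385 CG fell by 47.0 points where CHH was 35.1 points higher, and near AT1G62895 CG fell by 48.2 points where CHH was 29.4 points higher. These 3 were 4.05% of the CG DMRs and 1.32% of the CHH DMRs of the blocks, and on the rest of the chromosomes 7 of 195 CG DMRs (3.59%) overlapped a CHH DMR.

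The CG and CHH DMRs of the blocks formed 267 stretches when neighbours within 5 kb were joined, of which 238 were single regions, 24 were pairs and 5 held 3 regions. In 3 of these 5 every region changed in the same direction. At AT1G09705 2 CG DMRs (-82.7 and -43.8 points) and the CHH DMR lay within 1 kb. Within 6.3 kb around AT1G61300 and AT1G61310, 3 CG DMRs gained 36.0, 30.4 and 44.1 points. Within 6.4 kb around AT1G73530 and NUDT21, 3 CHH DMRs gained 16.0, 42.0 and 19.0 points. The other 2 were mixed: near BGLU21 and BGLU22 CG differences of -45.3 and -53.8 points stood beside a CHH gain of 36.7, and at AT1G62895 CG differences of -48.2 and -35.0 points stood beside a CHH gain of 29.4.

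The longest CG DMR of the blocks was 1100 bp in AT1G75945 (-32.3 points, 35 CG sites). It was the only CG DMR of the blocks that overlapped a variable CG region, and that region was listed in mat nrpd1+/-, which did not enter the comparison. That 0 of 74 overlapped a variable CG region of WT or of pat nrpd1+/- follows from the exclusion of variable regions by the study. On chromosome 2 the longest was the region of 500 bp in AT2G45245. The longest CHH DMRs were 600 bp, 510 bp upstream of FU, a kinase gene (31.5 points), and 500 bp at NAP12, which encodes an ABC protein, on chromosome 2 (-12.3 points). Of the CHH DMRs of the blocks, 0 of 227 overlapped a variable CHH region of WT or of pat nrpd1+/-, as the exclusion of such regions by the study implies, but 68 (29.96%) overlapped one of mat nrpd1+/-. On the rest of the chromosomes 150 of 647 (23.2%) did.

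Most variable CG loci were listed in a single genotype, in the blocks and on the rest of the chromosomes. The lists also cover little sequence: variable CG regions of mat nrpd1+/- covered 0.254% of block bins. Of the block regions, 2 of 31 of pat nrpd1+/- (6.45%) and 1 of 13 of WT (7.69%) overlapped one of mat nrpd1+/-. No region of pat nrpd1+/- there overlapped one of WT. Whether sharing differed from that covered share was not tested. Merged over the genotypes, the blocks held 160 variable CG loci, of which 116 were listed in mat nrpd1+/- alone, 29 in pat nrpd1+/- alone, 12 in WT alone and 3 (1.88%) in a pair of genotypes. On the rest of chromosomes 1 and 2, 4 of 298 (1.34%) were shared. The shared loci lay in RBL2, a rhomboid-like gene, and AT1G68070, a RING finger gene, for mat nrpd1+/- and pat nrpd1+/-, and in AT1G73066, a leucine-rich repeat gene, for WT and mat nrpd1+/-. Of the variable CHH loci, 486 of 1399 (34.7%) were listed in more than 1 genotype in the blocks and 1279 of 4039 (31.7%) on the rest. The CHH lists cover a larger share of the sequence than the CG lists, so the contexts are not compared.

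The longest variable CG regions were 700 bp in AT2G45670, a calcineurin B subunit-like gene, and 600 bp in AT2G43180, a phosphoenolpyruvate carboxylase family gene, both in mat nrpd1+/-. In pat nrpd1+/- they were 500 bp in AT1G68070 and 500 bp in AT2G36500, and in WT 400 bp in the non-coding gene AT1G08443 and 400 bp in AT1G70900. The longest variable CHH regions were 1300 bp at ZPR4, listed as non-coding, and 1100 bp at LACS1, an acyl-CoA synthetase gene, in pat nrpd1+/-. In mat nrpd1+/- they were 1200 bp in AT1G73850 and 1100 bp in AT1G67530, and in WT 1100 bp in AT2G43150, a proline-rich extensin-like gene, and 1000 bp in AT2G37440.

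Several genes of the DNA methylation pathways lay in the blocks, 8 of the 40 that could be matched of 43 looked up. CMT3, the chromomethylase that methylates CHG sites, carried a CG DMR in coding and intron sequence (26249701 to 26250000) at -40.1 points in pat nrpd1+/-, with 2 CG sites. ROS1, a DNA glycosylase that removes methylated cytosine, held a variable CG region of mat nrpd1+/- and a variable CHH region of pat nrpd1+/-. VIM2, one of the proteins that assist CG maintenance, had a variable CHH region of mat nrpd1+/- 20 bp downstream. Over all protein-coding genes of the blocks, 3.47% had a variable CG region of mat nrpd1+/- within 1 kb, 16.9% a variable CHH region of pat nrpd1+/- and 20.2% one of mat nrpd1+/-. VIM1, VIM4, VIM5, NRPD1 and NRPE1 had no member within 1 kb. The members nearest to NRPD1 were a variable CHH region of pat nrpd1+/- at 1.28 kb and, among DMRs, a CG loss of -38.5 points at 5.91 kb. NRPE1 had a CHH gain of 17.9 points at 9.66 kb.

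Of 29 endosperm or imprinted genes looked up, 28 were matched and 6 lay in the blocks. YUC10, a flavin monooxygenase of auxin synthesis, had a CHH DMR at -22.5 points (18093801 to 18094100). This DMR overlapped untranslated sequence at the end of the gene, at 18093878, and lay mostly downstream of it. PHE2, a MADS-box gene next to the imprinted PHE1, had one at -20.9 points (24255801 to 24256200). It too overlapped untranslated sequence at the end of the gene, at 24255857, and lay mostly downstream. PHE1, MINI3, ZOU and EDE1 had no member within 1 kb. PHE1 and PHE2 are similar in sequence, so reads may have been shared between them. For comparison, 1.78% of all 4266 protein-coding genes of the blocks had a CG DMR within 1 kb and 6.09% a CHH DMR.

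The midpoints that defined membership were compared with the block edges. At the proximal edge of chromosome 1 the last CG DMR outside had a difference of -35.4 points, 25900 bp before the edge, and the first inside was -31.5 points, 440650 bp after it. For CHH the values were 18.3 points outside and -10.6 inside. At the distal edge the last CG and CHH DMRs inside were 36.7 and -11.8 points, and the first outside were -33.2 and 15.5. On chromosome 2 the last outside were 46.1 points for CG and 10.8 for CHH, and the first inside were 57.9 and -15.8. The nearest variable CG regions of mat nrpd1+/- were 59350 bp outside and 33100 bp inside the proximal edge of chromosome 1, 33800 bp inside and 4600 bp outside its distal edge, and 42350 bp outside and 241900 bp inside on chromosome 2.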

How the data were processed

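Endosperm methylation had been measured by bisulfite sequencing in 6 samples, 2 for each of 3 genotypes. The authors trimmed reads with Trim Galore and aligned them to TAIR10 with Bismark, whose versions are not given in the sources used here. They pooled replicates, compared genotypes in overlapping 300-bp windows, merged neighbouring windows, and deposited the methylation difference of each DMR, in percent. In the CHH list of WT and pat nrpd1+/- it was read from the column after the length. The variable lists, deposited as coordinates only, compare the replicates of a genotype. The deposited maternal-read lists give each retained region's fraction of maternal reads. No list gives read counts, so intervals cover counting of regions only.

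The 8 lists with members were read with pandas 2.3.3 under Python 3.11.15, and 3 organelle regions were left out. Members and gene lists were chosen with earlier results of these data known. The named regions were the 5 largest losses and 5 largest gains of each context, the longest of each list, and members within 1 kb of listed genes. Shares were compared by Fisher's exact test with Clopper-Pearson intervals and densities by an exact conditional test on Mb retained in both WT and pat nrpd1+/- (scipy 1.17.1), with Benjamini-Hochberg adjustment over 14 tests and a threshold of 0.05. Backgrounds are shares of 100-bp bins of that retained sequence. Genes and sequences were taken from RefSeq TAIR10.1. Pseudogenes and non-coding genes were grouped, and transposable elements were not counted separately. Centromeres were taken at 15 Mb on chromosome 1 and 3.6 Mb on chromosome 2. The tests of DMR density ratios and hypomethylated shares were checked on simulated independent counts. That check cannot show how they behave when neighbouring regions are dependent, and the variable lists were not simulated. Alternatives were the arms as comparison, each chromosome alone, stricter differences, no single-window regions, whole length as exposure and overlap as membership.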

Additional observations from a re-analysis of the deposited data

Results flagged for a closer look

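A CHH DMR of mat nrpd1+/- against WT lay inside the chromosome 1 block, where the maternal-read list of mat nrpd1+/- retained only 3 pieces of 1000 bp: its difference was -20.6 points at 18627001 to 18627500. It was set apart because it comes from a list that the comparisons of WT with pat nrpd1+/- did not use.

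The stretch of chromosome 1 beyond the block held 45 variable CG regions of mat nrpd1+/-, against 2 of WT and 0 of pat nrpd1+/-. At 39.96 per Mb (exact interval 29.2 to 53.5) it lay outside the blocks and thus outside the members. The difference between genotypes in this stretch was not tested.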

How the results depend on the processing

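Each of the 14 tested values was recomputed under alternatives, 116 in all: 94 kept their direction and side of the threshold, 8 reversed, 4 newly passed and 10 no longer passed. The count of 94 is no measure of robustness, because membership by overlap left every value unchanged and most values had not passed at the outset. The only values that had passed, the density ratios of CHH DMRs and variable CHH regions, did not pass against the arms. Leaving out the distal end of chromosome 1, also within the arms or chromosome 1 alone, and counting only regions in retained sequence were chosen after seeing the data. Against the arms, the density ratio was 0.979 for CHH DMRs, 0.892, 0.967 and 0.975 for variable CHH regions of WT, mat nrpd1+/- and pat nrpd1+/-, and 0.980 for variable CG regions of mat nrpd1+/-, and the share of variable CHH regions in mat nrpd1+/- minus pat nrpd1+/- turned to -0.208 points. On chromosome 1 alone, the ratio was 1.14 for CG DMRs, 0.849 for CHH DMRs and 0.825 for variable CG regions of mat nrpd1+/-, and the share of the latter minus pat nrpd1+/- was -1.28 points. On chromosome 2 alone, the ratios of CG DMRs and of variable CG regions of mat nrpd1+/- were 0.171 and 2.07, and the hypomethylated CG share differed by 23.5 points, with 6 DMRs. Without the distal end of chromosome 1 these ratios were 0.720 and 1.43. Without it, the arms gave 0.95 for CHH DMRs and 0.884, 0.960 and 0.961 for variable CHH regions of WT, mat nrpd1+/- and pat nrpd1+/-, and chromosome 1 gave 1.10 for CG and 0.811 for CHH DMRs. Stricter differences gave -3.16 points for the hypomethylated CHH share. The cause of these changes was not tested.

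No paired analysis was possible because the lists hold no values per replicate, and leaving out a replicate was not run for want of such values. Depth per region is unknown, regions are not independent units, and centromere positions were assumed.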
